A study of Arabidopsis thaliana with 12 samples.

Results

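Transcript levels of 10 genes of aliphatic glucosinolate synthesis were read from the FPKM table (fragments per kilobase of transcript, scaled to the depth of the library) of a leaf RNA-seq experiment in Arabidopsis thaliana. The genes were chosen by name and locus identifier, with earlier results of these data known. All 10 were found among the 32833 genes of the table: MYB28, MYB29, BCAT4, MAM1, CYP79F1, CYP79F2, CYP83A1, UGT74C1, SOT18 and FMOGS-OX1. Leaves of wild-type Col-0 were set against leaves of tpt-2, which carries a mutant allele of TPT. TPT encodes the chloroplast envelope translocator for triose phosphate and phosphate. Both genotypes were 21 d old, raised on soil under a 10 h photoperiod. All plants were moved to 500 µmol photons m-2 s-1 when the night ended, and leaves were taken after 9 h or 18 h. Each of the 4 groups held 3 biological replicates. The 9 h leaves were taken within the usual light period and the 18 h leaves beyond it, so time in strong light and time of day cannot be told apart. The labels give 1 mutant allele, and neither the pooling of plants nor the leaf stage.

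Glucosinolates are sulfur-rich defence compounds of the cabbage order. They are stored in leaves and release toxic products when myrosinases reach them in damaged tissue. The aliphatic ones are made from methionine: its side chain is lengthened, mainly in the chloroplast, then the core structure is built by cytochromes P450, conjugation, glucosylation and sulfation, and finally the side chain is modified. MYB28 and MYB29 are the transcription factors that activate these genes, together with MYC factors.

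A pair of similar cytochrome P450 genes stands next to each other on chromosome 1, and the sequences show how far they can be told apart. The coding sequences of CYP79F1 and CYP79F2 matched at 91.9% of aligned bases, and the longest identical run was 100 bases. The 90-base windows below are the stretch of the coding sequence in which they differed most, and capitals mark the 20 differing bases. Sequences come from RefSeq's TAIR10.1 assembly and its gene models, 5′ to 3′ on the coding strand.
CYP79F1: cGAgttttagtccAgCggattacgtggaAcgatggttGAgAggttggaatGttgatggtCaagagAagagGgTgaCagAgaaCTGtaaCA
CYP79F2: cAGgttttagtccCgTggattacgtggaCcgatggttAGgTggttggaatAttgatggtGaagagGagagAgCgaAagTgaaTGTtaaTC
How fragments that match both genes were counted is not given in the sources used here, so the levels of this pair, CYP79F2 above all, are uncertain.

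The 250 bases before the annotated gene start are shown for 4 enzyme genes: the same pair, which stood far apart in level, and CYP83A1 and FMOGS-OX1, whose tpt-2 libraries lay below Col-0 at 9 h and at 18 h. The same held for the tpt-2 libraries of CYP79F1, MAM1 and UGT74C1. The windows are chr1:5608432-5608681 (plus strand) for CYP79F1, chr1:5604794-5605043 (plus) for CYP79F2, chr4:7992430-7992679 (minus) for CYP83A1 and chr1:24502777-24503026 (minus) for FMOGS-OX1. Capitals mark motif matches on either strand.
CYP79F1: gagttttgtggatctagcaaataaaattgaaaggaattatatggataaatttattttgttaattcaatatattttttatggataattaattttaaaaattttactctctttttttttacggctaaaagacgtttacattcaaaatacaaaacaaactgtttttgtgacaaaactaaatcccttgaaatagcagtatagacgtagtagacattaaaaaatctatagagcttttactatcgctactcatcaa
CYP79F2: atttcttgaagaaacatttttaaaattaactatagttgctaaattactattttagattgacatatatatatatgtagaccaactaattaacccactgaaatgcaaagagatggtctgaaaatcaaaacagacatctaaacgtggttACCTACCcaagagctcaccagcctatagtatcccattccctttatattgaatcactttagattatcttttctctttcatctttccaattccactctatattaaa
CYP83A1: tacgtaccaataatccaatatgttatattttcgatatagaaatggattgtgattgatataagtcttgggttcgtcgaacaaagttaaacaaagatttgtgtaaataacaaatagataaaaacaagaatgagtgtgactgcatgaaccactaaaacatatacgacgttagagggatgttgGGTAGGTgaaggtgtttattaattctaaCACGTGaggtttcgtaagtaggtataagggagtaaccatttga
FMOGS-OX1: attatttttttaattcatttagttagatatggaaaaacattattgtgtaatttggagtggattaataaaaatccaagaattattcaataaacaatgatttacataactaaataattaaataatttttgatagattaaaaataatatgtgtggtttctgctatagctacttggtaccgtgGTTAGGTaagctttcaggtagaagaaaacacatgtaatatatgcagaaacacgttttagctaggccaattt
The motifs searched were 3 AC elements, which R2R3 MYB factors are known to bind and which are spelled out with their matches below, the G-box of MYC factors, and the core of an element known from sulfur-responsive promoters. Any of the AC elements was found in 3 of the 10 genes and in 6.12% of 27443 windows of the same length before annotated genes. All 3 are among the 4 genes shown, while MAM1 and UGT74C1, which are not shown, had no AC element. A link between motif matches and the genotype difference was not tested. The AC element ACCTACC was found in CYP79F2 at position -104 and in CYP83A1 at -71, and in 1.16% of all windows. The element ACCTAAC was found in FMOGS-OX1 at -71 (2.46% of windows). The third, ACCAACC, was found in 0 of the 10 genes and 2.69% of windows. The G-box CACGTG was found in CYP83A1 at -43 (6.49% of windows). The sulfur-responsive core GAGAC was found in MYB29 at -84 and UGT74C1 at -26, against 25.75% of windows. The motifs do not overlap in these windows, positions count back from the gene start, and a match describes letters, not binding.

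Depth, recovered from the steps between low FPKM values, was 12.3 to 14.3 M fragments (M, mega) in 11 libraries. The library of Col-0 replicate 1 at 18 h was deeper, at 25.7 M. TPT transcript was 393 ± 61.0 FPKM (SD, n = 3) in Col-0 and 3.10 ± 0.678 in tpt-2 at 9 h, and 436 ± 29.8 and 2.92 ± 0.206 at 18 h, the order that the labels give. The 5 leaf marker genes summed to 35540 to 39270 FPKM in Col-0 and 39670 to 44370 in tpt-2 at 9 h, without overlap, and to 43090 to 45670 and 39280 to 45990 at 18 h. Of the 5, CA1 was called higher in tpt-2 at 9 h (log2 difference 0.34, adjusted p 0.0453). Of the 4 root markers, COBL9, EXPA7 and PRP3 were at or near 0 throughout, and SHR read 4.39 to 7.70 FPKM and was called higher in tpt-2 at 9 h (0.32, adjusted p 0.032). Seed storage genes were near 0 except in Col-0 replicate 2 at 18 h, in which CRA1 read 4.48 FPKM and SESA3 1.15. Among phloem markers SUC2 was lower in tpt-2 at 18 h (log2 difference -0.51) and SWEET11 higher at 9 h and 18 h (0.60 and 0.59), and the other, AHA3, did not pass the test, nor did the 3 guard cell markers. Organelle-encoded genes made up 0.054% to 0.080% of summed FPKM in Col-0 and 0.352% to 3.23% in tpt-2, the highest being tpt-2 replicate 3 at 9 h. The part of these differences in the results below was not tested. In bulk leaf RNA, fewer cells of a type and less RNA per cell cannot be told apart.

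On the FPKM scale, which is per length, CYP83A1 (mean over 12 libraries 231 FPKM), MAM1 (227), BCAT4 (181.5) and CYP79F1 (152) were the most abundant transcripts, and the ranges of neighbours in this order overlapped. SOT18 (73.2) and UGT74C1 (72.3) came next, below every CYP79F1 value. MYB28 averaged 48.3 FPKM, FMOGS-OX1 31.6 and MYB29 27.0, with overlapping ranges. CYP79F2 was lowest at 12.6 FPKM, below every MYB29 value. The ratio of CYP79F1 to CYP79F2 was between 9.42 and 15.1 in the 12 libraries.

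**Figure D1:**
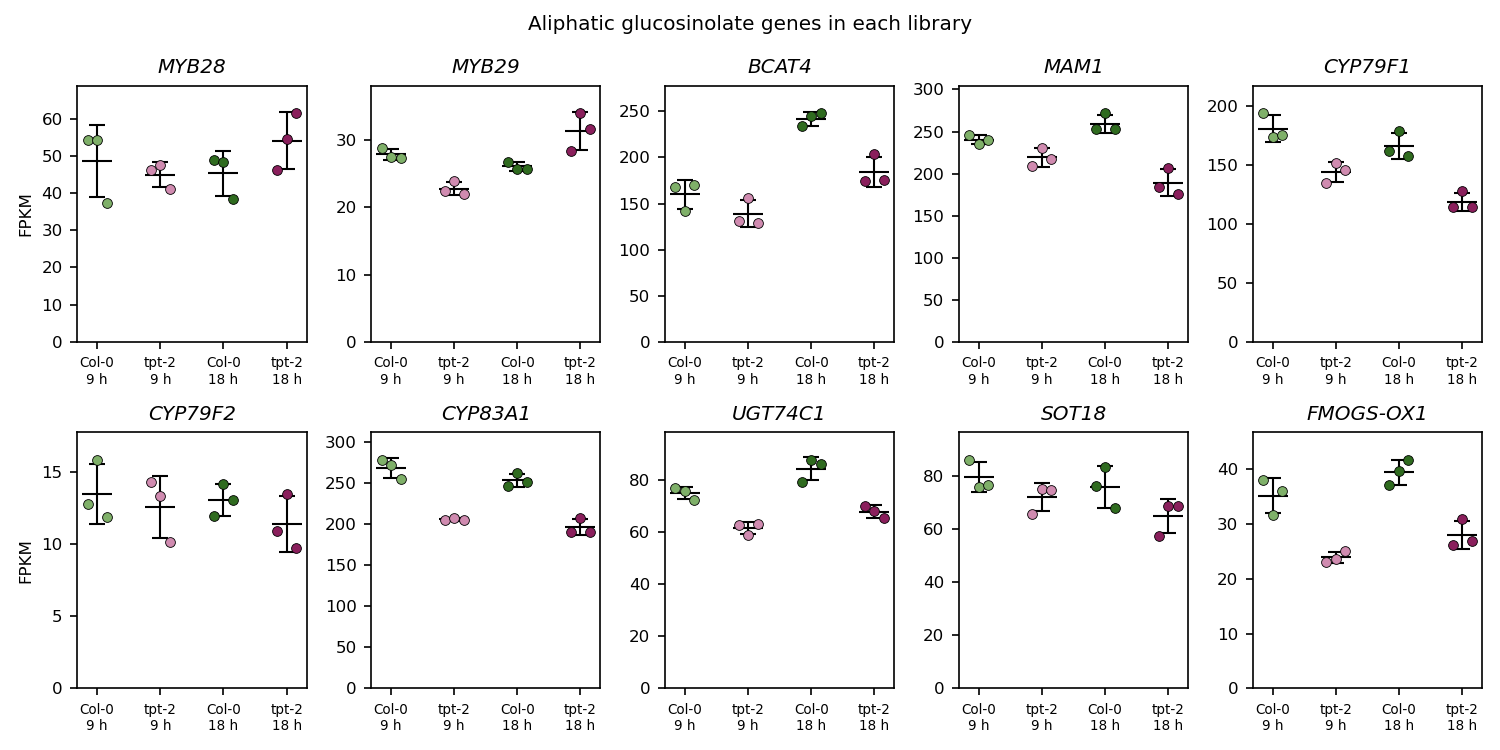
FPKM of each of the 10 genes in each library (points, 3 per group), with the group mean and SD (bars); the y axes start at 0. CYP83A1, FMOGS-OX1, CYP79F1, MAM1 and UGT74C1 show tpt-2 below Col-0 in every library at both times, while MYB28 overlaps between genotypes.

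At 9 h, transcripts of 5 of the 10 genes were lower in tpt-2 than in Col-0 and none was called higher. The 5 were FMOGS-OX1 at 67.9% of the Col-0 mean, CYP83A1 at 76.7%, CYP79F1 at 79.5%, MYB29 at 81.7% and UGT74C1 at 82.1%. The call was an adjusted p under 0.05 in limma on log2(FPKM + 1), with Benjamini-Hochberg adjustment over all 17585 genes tested; all 10 passed the filter of a mean of at least 1 FPKM. Over all tested genes 22.3% were called in this comparison, 8.72% as lower and 13.6% as higher. All 10 log2 differences were negative, with a median of -0.24 against 0.07 over all tested genes. Groups did not overlap, with tpt-2 lower, for 7 of the 10 and for 13.9% of all genes. Without tpt-2 replicate 1 at 9 h, 3 of the 10 and 13.9% of all genes were called.

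At 18 h, 5 of the 10 were again lower in tpt-2 and none was called higher, and all 5 encode enzymes: FMOGS-OX1 at 70.9% of the Col-0 mean, CYP79F1 at 71.45%, MAM1 at 72.9%, CYP83A1 at 77.4% and UGT74C1 at 80.4%. Over all tested genes 2.88% were called at 18 h, 0.881% as lower and 2.0% as higher. The median log2 difference of the 10 was -0.34 against 0.09 over all genes. The 8 enzyme genes all had negative differences (median -0.38), and the MYB genes had positive ones. Groups did not overlap, with tpt-2 lower, for 6 of the 10 and 6.86% of all genes, and with tpt-2 higher for 1, MYB29, and 22.1% of all genes. These calls depended on single libraries. Without Col-0 replicate 2, in which seed storage transcripts were found, limma called 0 of 10 and 0.608% of all genes. In that fit 7 of the 10 had an unadjusted p under 0.05. Without Col-0 replicate 3, in which CRA1 and SESA3 read 0, it called 3 of 10 and 0.648% of all genes. Without Col-0 replicate 1 the calls were 5 of 10 and 1.48%. When tpt-2 replicate 1, 2 or 3 was dropped, 4 of 10 were called each time, with 1.83%, 0.995% and 2.42% of all genes. Whether the seed storage transcripts bear on the lost calls was not tested. All 10 differences kept their sign in each of these fits. The test on recovered fragments (limma-voom), over all libraries, called 6 of 10 and 2.97% of its genes.

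**Figure D2:**
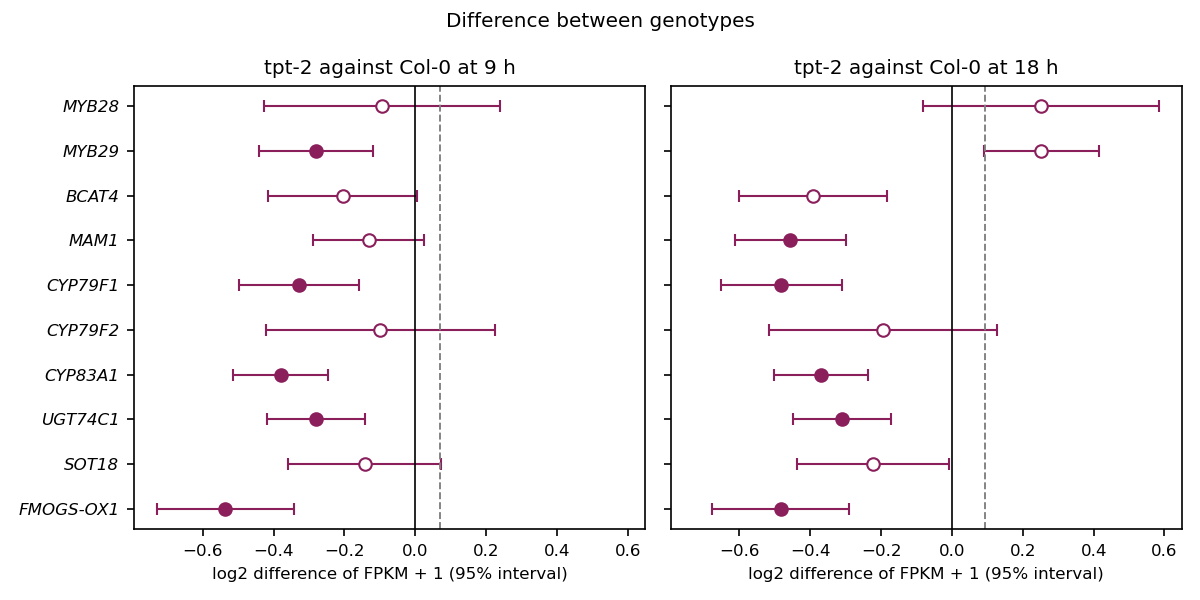
Log2 difference of FPKM + 1 between tpt-2 and Col-0 at 9 h and at 18 h for the 10 genes, with 95% intervals from the limma fit; filled points passed the test and the dashed line is the median of all tested genes. The 8 enzyme genes lie left of 0 at both times, and MYB28 and MYB29 lie left of 0 at 9 h and right of it at 18 h.

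Of the activators, MYB29 was called between genotypes at 9 h and MYB28 at neither time, and a difference between them was not tested. MYB28 (AT5G61420, chromosome 5, 24689069 to 24691187, minus strand), the main activator, read 54.4, 54.2 and 37.4 FPKM in Col-0 and 46.2, 47.6 and 41.2 in tpt-2 (9 h). At 18 h it read 49.0, 48.5 and 38.4 in Col-0 and 46.3, 54.6 and 61.4 in tpt-2. The groups overlapped at both times, and Col-0 replicate 3 was the lowest of its group each time. The log2 difference was -0.09 at 9 h (95% interval -0.43 to 0.24, adjusted p 0.704) and 0.25 at 18 h (-0.08 to 0.58, adjusted p 0.368). Neither passed the test, and differences within these intervals remain possible.

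MYB29 (AT5G07690, chromosome 5, 2446669 to 2448584, plus strand), its close relative, had a genotype difference that changed with time. At 9 h it read 28.8, 27.5 and 27.4 FPKM in Col-0 and 22.5, 23.9 and 22.01 in tpt-2. After 18 h the readings were 26.8, 25.7 and 25.7 in Col-0 and 28.4, 34.0 and 31.7 in tpt-2. All tpt-2 libraries were thus below Col-0 at 9 h and all were above it at 18 h. The fitted log2 difference was -0.28 ± 0.074 (SE) at 9 h (adjusted p 0.0186) and 0.25 ± 0.074 at 18 h, which missed the threshold (adjusted p 0.0855). The change in the genotype difference from 9 h to 18 h, the interaction, was 0.53 ± 0.105 (adjusted p 0.0195), and adjusted p was 0.0569 without Col-0 replicate 2 at 18 h. MYB29 was the only 1 of the 10 called in the interaction, against 4.78% of all genes (2.43% in the positive direction). The 9 h call was lost in 3 of 20 alternative settings (adjusted p up to 0.0594). For MYB28 the interaction was also positive, 0.23 to 0.52 over 19 alternative settings, and was called in 0 of them (main limma adjusted p 0.4). The SE of MYB28 was larger, 0.153 at 9 h. A change with time particular to MYB29 was thus not shown.

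Chain elongation opens with BCAT4 (AT3G19710, chromosome 3, 6846969 to 6849582, minus strand), which removes the amino group of methionine. BCAT4 read 168, 142 and 170.2 FPKM in Col-0 and 132, 156 and 129 in tpt-2 at 9 h, with overlap. By 18 h it read 234, 245 and 248 in Col-0 and 175, 203 and 176 in tpt-2, with every tpt-2 library lower. In the limma fit the log2 difference was -0.21 at 9 h (adjusted p 0.147) and -0.39 ± 0.096 (SE) at 18 h, which just missed the threshold (adjusted p 0.0507) and was called in 6 of 20 alternative settings. The opposite-strand gene IKU2 overlaps 21.2% of its exon bases and is listed at 0 in all 12 libraries.

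MAM1 (AT5G23010, chromosome 5, 7703041 to 7706973, plus strand), the condensing enzyme of the elongation cycle in the chloroplast, read 246, 235 and 239 FPKM in Col-0 and 209, 231 and 218 in tpt-2 (9 h). At the 18 h sampling it read 253, 272 and 253 in Col-0 and 184, 207 and 176 in tpt-2. The tpt-2 libraries lay below all Col-0 libraries at both times, by a wider margin at 18 h. The log2 difference was -0.13 at 9 h (95% interval -0.29 to 0.02, adjusted p 0.212) and -0.46 ± 0.072 (SE) at 18 h (adjusted p 0.0079). The interaction was -0.32 and missed the threshold (adjusted p 0.0925), so a different effect at the 2 times was not shown for MAM1.

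CYP79F1 (AT1G16410, chromosome 1, 5608682 to 5612064, plus strand) opens the core pathway by turning the elongated methionines into aldoximes. It read 194, 174 and 175 FPKM in Col-0 and 135, 151 and 145 in tpt-2 (9 h). The 18 h values were 162, 178 and 157 in Col-0 and 114, 128 and 114 in tpt-2. All tpt-2 libraries were lower at both times. The fitted log2 difference was -0.33 ± 0.078 (SE) at 9 h (adjusted p 0.0115, and 0.0523 without tpt-2 replicate 1) and -0.48 ± 0.078 at 18 h (adjusted p 0.00905).

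CYP79F2 (AT1G16400, chromosome 1, 5605044 to 5607498, plus strand), which acts on long-chain methionine derivatives, overlapped between the genotypes at both times. It lay between 11.9 and 15.8 FPKM in Col-0 and between 10.13 and 14.3 in tpt-2 at 9 h, and between 11.98 and 14.2 and between 9.71 and 13.5 at 18 h. In the limma fit the log2 difference was -0.10 at 9 h (95% interval -0.42 to 0.22) and -0.19 at 18 h (-0.52 to 0.13), with adjusted p of 0.678 and 0.474. The intervals hold the differences seen in CYP79F1, and the unequal change of the pair was not tested.

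CYP83A1 (AT4G13770, chromosome 4, 7990429 to 7992429, minus strand), which oxidises the aldoximes, read 278, 272 and 255 FPKM in Col-0 and 205, 208 and 205 in tpt-2 (9 h). At 18 h it read 247, 262 and 252 in Col-0 and 191, 208 and 189.9 in tpt-2. The genotypes stood apart at both times, with tpt-2 at nearly the same level at 9 h and 18 h. The log2 difference was -0.38 ± 0.061 (SE) at 9 h (adjusted p 0.00143) and -0.37 ± 0.061 at 18 h (adjusted p 0.00983). The interaction was 0.01 (95% interval -0.18 to 0.20, adjusted p 0.962).

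UGT74C1 (AT2G31790, chromosome 2, 13518199 to 13520364, plus strand), a glucosyltransferase of the core pathway, read 76.8, 76.0 and 72.6 FPKM in Col-0 and 62.7, 59.0 and 63.3 in tpt-2 (9 h). After 18 h the readings were 79.3, 87.8 and 86.2 in Col-0 and 70.2, 68.2 and 65.3 in tpt-2. Every tpt-2 library was below every Col-0 library of its time. The fitted log2 difference was -0.28 ± 0.063 (SE) at 9 h (adjusted p 0.00904) and -0.31 ± 0.063 at 18 h (adjusted p 0.0274, called in 14 of 20 alternative settings). On 18.6% of its exon bases it overlaps opposite-strand genes, of which AT2G31800 read 11.7 to 25.7 FPKM. The libraries were directional, but whether counting used the strand is not given in the sources used here.

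SOT18 (AT1G74090, chromosome 1, 27862814 to 27864193, plus strand), the sulfotransferase that completes the core, ranged from 76.0 to 86.2 FPKM in Col-0 and was 66.0 to 75.3 FPKM in the mutant at 9 h, without overlap. After 18 h the range was 68.0 to 83.6 in Col-0 and 57.5 to 68.7 in tpt-2, with overlap. In the limma fit the log2 difference was -0.14 at 9 h (95% interval -0.36 to 0.07, adjusted p 0.329) and -0.22 at 18 h (-0.44 to -0.01, adjusted p 0.227), so neither passed the test.

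FMOGS-OX1 (AT1G65860, chromosome 1, 24498954 to 24502776, minus strand), which oxidises the sulfur of the finished side chain, had the largest relative difference of the 10 genes at both times. It read 37.9, 31.6 and 35.9 FPKM in Col-0 and 23.0, 23.6 and 25.0 in tpt-2 (9 h). By 18 h it read 37.1, 39.6 and 41.7 in Col-0 and 26.1, 30.9 and 26.9 in tpt-2. No tpt-2 library reached the lowest Col-0 library of its time. The log2 difference was -0.54 ± 0.088 (SE) at 9 h (adjusted p 0.00165) and -0.48 ± 0.088 at 18 h (adjusted p 0.0165). The 18 h call was also lost without tpt-2 replicate 1 at 18 h, with adjusted p up to 0.0884 over the alternatives.

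Between 9 h and 18 h, 1 of the 10 genes was called in Col-0 and 4 of the 10 in tpt-2. In Col-0 only BCAT4 of the 10 was called, as higher at 18 h, while 28.7% of all genes were called and 13.1% were called higher. In tpt-2 BCAT4 and MYB29 were higher and CYP79F1 and MAM1 lower at 18 h, while 23.4% of all genes were called, 12.1% higher and 11.3% lower. BCAT4 rose by 0.60 ± 0.096 (SE) on the log2 scale in Col-0 (adjusted p 0.000741) and by 0.41 in tpt-2 (adjusted p 0.00902). MYB29 rose by 0.44 ± 0.074 in tpt-2 (adjusted p 0.0012), and its difference in Col-0 was -0.09 (adjusted p 0.39). CYP79F1 fell by 0.28 in tpt-2 (adjusted p 0.0234), and MAM1 by 0.21, at the edge of the threshold (adjusted p 0.0493, lost in 15 of 20 alternative settings). Only BCAT4 and MYB29, and neither CYP79F1 nor MAM1, were called in tpt-2 when tpt-2 replicate 2 or 3 at 9 h or tpt-2 replicate 1 or 3 at 18 h was left out.

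Averaged in each library, the 8 enzyme genes did not overlap between the genotypes at 9 h or at 18 h, and the MYB pair overlapped at both times. The mean log2(FPKM + 1) of the enzyme genes was 6.55 ± 0.049 (SD, n = 3) in Col-0 and 6.29 ± 0.044 in tpt-2 at 9 h, and 6.64 ± 0.063 and 6.28 ± 0.10 at 18 h. The same mean over MYB28 and MYB29 was 5.23 ± 0.16 and 5.05 ± 0.080 at 9 h, and 5.14 ± 0.11 and 5.39 ± 0.15 at 18 h. The MYB ranges at 18 h met at their ends, 5.02 to 5.22 in Col-0 and 5.22 to 5.50 in tpt-2. The difference between these means, enzymes minus MYB, was 0.722 to 1.004 in tpt-2 at 18 h and 1.37 to 1.61 in Col-0 at 18 h. At 9 h it was 1.22 to 1.48 in Col-0 and 1.21 to 1.303 in tpt-2, with overlap. These means are descriptions over the chosen genes and were given no test.

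**Figure D3:**
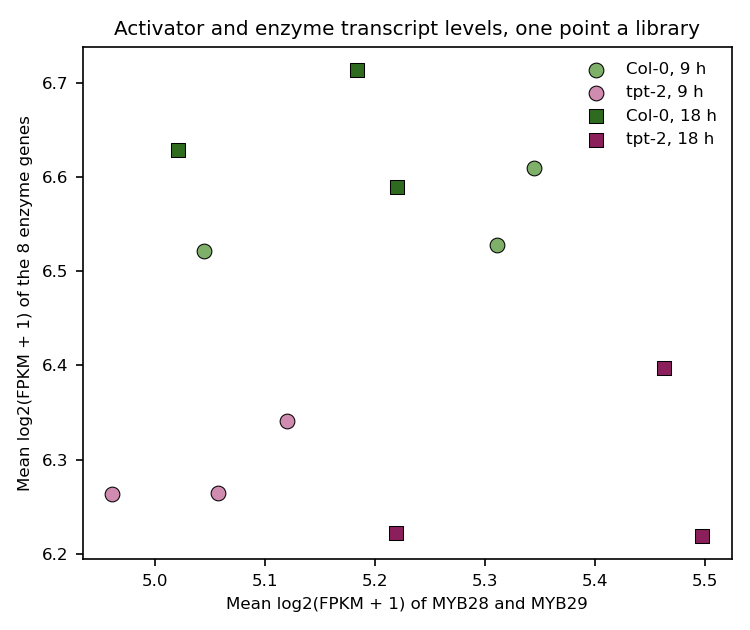
Mean log2(FPKM + 1) of the 8 enzyme genes (y axis) against that of MYB28 and MYB29 (x axis), 1 point for each of 12 libraries; neither axis starts at 0. All 6 tpt-2 libraries lie below all 6 Col-0 libraries on the y axis, and the tpt-2 libraries at 18 h lie lowest relative to their MYB level.

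The rest of the aliphatic pathway, 20 further genes listed from general knowledge, gave 17 tested genes. Of the 17, 10 were called lower in tpt-2 at 9 h and 6 at 18 h, and 0 higher at either time. Over all tested genes 8.72% were called lower and 13.6% higher at 9 h, and 0.881% and 2.0% at 18 h. The median log2 differences of the 17 were -0.40 and -0.22, with positive differences in 2 at 9 h and 3 at 18 h. Of the untested genes, AOP3 was near 0, and AOP2, annotated as a pseudogene, was not among the genes of the table. GSTF11 was listed at 0 but shares 100% of its exon bases with an opposite-strand gene, so its 0 was not read as absence. GSTU20, a glutathione transferase of the core pathway, fell furthest below Col-0 at 18 h: 774 ± 39.2 FPKM (SD, n = 3) against 508 ± 17.8 in tpt-2 at 9 h, and 1019 ± 5.85 against 648 ± 15.9 at 18 h. Its log2 difference was -0.61 (adjusted p 9.65e-05) and -0.65 (adjusted p 0.000268). Both calls held in all 20 alternative settings.

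Of the other elongation genes, IPMI-SSU2, IPMI-SSU3, IPMDH1 and IPMI-LSU1 were called lower at both times and BCAT3 at 9 h, while MAM3 and BASS5 were called at neither. IPMI-SSU2, a small subunit of the isomerase of the cycle, had log2 differences of -0.51 (adjusted p 0.000583) and -0.55 (adjusted p 0.00184) at 9 h and 18 h. IPMI-SSU3, another small subunit, had -0.56 (adjusted p 0.00238) and -0.43 (adjusted p 0.0404), and IPMDH1, the dehydrogenase of the cycle, -0.40 (adjusted p 0.00182) and -0.39 (adjusted p 0.0126). BCAT3, the chloroplast aminotransferase that ends elongation, had -0.44 at 9 h (adjusted p 0.00112) and -0.22 at 18 h (adjusted p 0.0982), and IPMI-LSU1, the large subunit, -0.29 and -0.30. MAM3, the relative of MAM1 that makes long chains, had -0.44 (adjusted p 0.146) and -0.07 (adjusted p 0.886), and BASS5, a transporter of the chloroplast envelope, -0.20 (adjusted p 0.146) and -0.28 (adjusted p 0.121). The 18 h calls of IPMI-SSU3 and IPMI-LSU1 held in 10 and 8 of 20 alternative settings. Among side-chain oxygenases FMOGS-OX3 was lower at both times (-0.59, adjusted p 0.000227, and -0.45, adjusted p 0.00718). FMOGS-OX2 was lower at 9 h (-0.62, adjusted p 0.0308) and rose from 9 h to 18 h by 1.28 in Col-0 and 1.56 in tpt-2. SUR1, the lyase that frees the thiol, and SOT17 were lower at 9 h (-0.38 and -0.37). GGP1, which trims the glutathione conjugate, rose in tpt-2 from 9 h to 18 h (0.51, adjusted p 0.0364). The 9 h call of FMOGS-OX2 held in 14 and the call of GGP1 in 11 of 20 alternative settings. UGT74B1 was not called between genotypes, at 100.4% of the Col-0 mean at 9 h and 119.3% at 18 h. It rose in tpt-2 from 9 h to 18 h (limma adjusted p 0.0218, called in 16 of 20 alternative settings). At 18 h, 3 of the 17 were called without Col-0 replicate 2 and 3 without Col-0 replicate 3, against 0.608% and 0.648% of all genes.

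**Figure D4:**
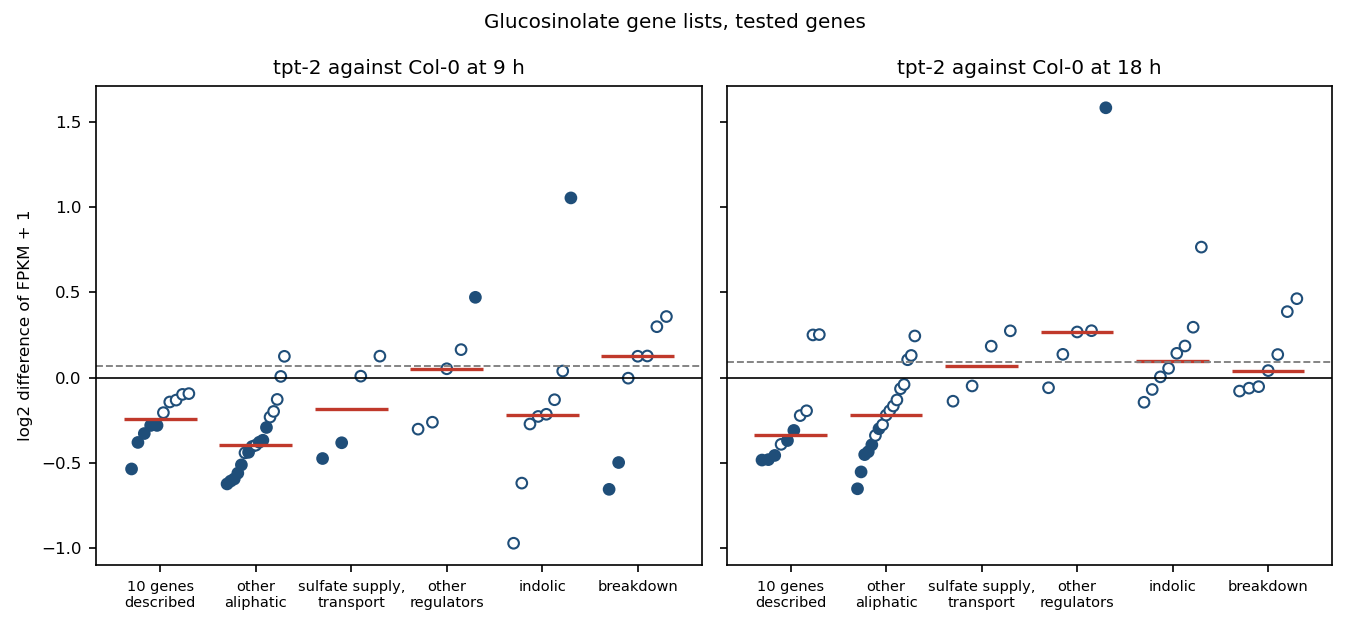
Log2 difference of FPKM + 1 between tpt-2 and Col-0 for every tested gene of 6 glucosinolate lists at 9 h and 18 h; filled points passed the test, red bars are list medians and the dashed line is the median of all tested genes. No gene of either aliphatic list was called higher at either time.

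Sulfate activation gave a difference at 9 h, when 8.72% of all genes were called lower. APK1 and APK2, which make the active sulfate for sulfotransferases, were lower in tpt-2 (-0.38, adjusted p 0.0275, and -0.47, adjusted p 0.0203), and the transporters GTR1 and GTR2 were not called. Both calls were lost without Col-0 replicate 2, tpt-2 replicate 1 or tpt-2 replicate 2 at 9 h, and that of APK1 also without Col-0 replicate 3 and with the replicate block. From 9 h to 18 h APK1, GTR2 and APK2 rose in tpt-2 (0.42, 0.38 and 0.39, adjusted p 0.017, 0.0359 and 0.0472) and limma called 0 of the 4 genes in Col-0 (0 with an unadjusted p under 0.05, and 0 by limma-voom). Over all tested genes 12.1% were called higher at 18 h in tpt-2 and 13.1% in Col-0. The 3 calls in tpt-2 became 1 without tpt-2 replicate 1 or 3 at 9 h or Col-0 replicate 2 at 18 h, and 0 without tpt-2 replicate 1 or 2 at 18 h or on only the libraries compared. Of 5 tested further regulators 1, SDI1, was called higher in tpt-2 at 18 h, against 2.0% of all genes. SDI1 is a repressor of aliphatic glucosinolate synthesis that is known to rise in sulfur deficiency. It read 3.18 ± 0.826 FPKM (SD, n = 3) in Col-0 and 2.42 ± 0.861 in tpt-2 at 9 h, and 10.6 ± 2.24 and 33.8 ± 7.69 at 18 h. The log2 difference at 18 h was 1.58 ± 0.222 (SE, adjusted p 0.00386), and the interaction was 1.89 ± 0.313 (adjusted p 0.00963). The 8 enzyme genes had negative differences at 9 h (median -0.24) and at 18 h (median -0.38), and SDI1 had -0.30 at 9 h (adjusted p 0.359). A link between SDI1 and the enzyme genes was not tested. Both the 18 h call and the interaction call of SDI1 held in every alternative setting. Its relative SDI2 was higher in tpt-2 at 9 h (0.47, adjusted p 0.0117). From 9 h to 18 h SDI1 rose by 1.47 in Col-0 and 3.36 in tpt-2, SDI2 by 0.55 and 0.36, and MYC4, a partner of the MYB activators, by 0.47 and 0.87. SLIM1, a regulator of the sulfur deficiency response, rose by 0.28 in Col-0 (adjusted p 0.0288). MYC3, MYC4 and SLIM1 were not called between genotypes, and MYC2, which shares 98.5% of its exon bases with an opposite-strand gene, was listed at 0.

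The indolic branch, made from tryptophan, and the breakdown genes gave calls between genotypes at 9 h and 0 at 18 h, when 22.3% and 2.88% of all genes were called. Of 8 tested indolic genes 0 were called lower and 1 higher at 9 h. The 1 was MYB51, an activator of the indolic branch, at 1.45 ± 0.668 FPKM (SD, n = 3) in Col-0 and 3.99 ± 0.334 in tpt-2 (log2 difference 1.05, adjusted p 0.00276). At 9 h, 6 of the 8 indolic genes had negative log2 differences and 2 positive ones. Their median was -0.22, against -0.24 for the 10 genes and 0.07 over all tested genes. Groups did not overlap, with tpt-2 lower, for 4 of the 8 and for 13.9% of all genes. The lowest difference, -0.97 for CYP79B2, missed the threshold (adjusted p 0.0594). Leaving out single libraries gave up to 3 called indolic genes at 9 h and up to 1 at 18 h. Of 7 tested breakdown genes, ESP and ESM1, which steer the products of hydrolysis, were lower at 9 h (-0.66, adjusted p 0.00427, and -0.50, adjusted p 0.0137), while 0 of the 7 were called higher. ESM1 was not called without tpt-2 replicate 1 at 9 h (adjusted p 0.0524). The myrosinases TGG1 and TGG2 were not called at either time. At 18 h limma gave 1 indolic and 1 breakdown gene an unadjusted p under 0.05, and limma-voom called 0 of either list. The differences between these lists and the aliphatic genes were not tested.

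Between 9 h and 18 h 23.4% of all genes were called in tpt-2 and 28.7% in Col-0. Of the 8 indolic genes 5 were higher and 1 lower at 18 h in tpt-2, against 1 higher in Col-0. CYP79B3 and CYP79B2, which turn tryptophan into its aldoxime, rose by 1.40 and 1.38 in tpt-2 (adjusted p 0.0112 and 0.0121). CYP79B3 read 25.5, 24.9 and 22.1 FPKM in the tpt-2 libraries of 9 h. Those of 18 h read 83.4, 101.1 and 33.1, with replicate 3 far below the other two. CYP83B1, which oxidises the aldoxime, rose by 0.81 (adjusted p 0.0362), and SOT16, a sulfotransferase of the branch, by 0.74 (adjusted p 0.014). MYB34, another activator of the branch, rose by 0.48 in tpt-2 (adjusted p 0.0259) and by 0.47 in Col-0 (adjusted p 0.0252), and MYB51 fell by 0.62 in tpt-2 (adjusted p 0.0343). The 6 calls in tpt-2 became 2 when tpt-2 replicate 2 at 9 h was left out and 3 when replicate 3 was. They became 2 when replicate 1 of tpt-2 at 18 h was left out and 1 when replicate 2 was.

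Of the 7 breakdown genes 4 were higher and 1 lower at 18 h in tpt-2, and 1 was higher and 1 lower in Col-0. NSP5, a nitrile specifier protein, rose by 0.88 in Col-0 (adjusted p 0.0207) and by 0.97 in tpt-2 (adjusted p 0.0156). ESP rose by 0.77, NSP1, another nitrile specifier, by 0.63 and ESM1 by 0.48 in tpt-2 (adjusted p 0.0012, 0.0361 and 0.0147). PEN2, an atypical myrosinase, fell by 0.45 in Col-0 (adjusted p 0.00191) and by 0.63 in tpt-2 (adjusted p 0.000234). The 5 calls in tpt-2 became 3 without tpt-2 replicate 1 or 3 at 9 h, or tpt-2 replicate 1 or 2 at 18 h. In the interaction limma called 0 genes of either list (2 of each with an unadjusted p under 0.05, and 0 of either by limma-voom).

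The genes whose profile over the 12 libraries was most like the mean standardised profile of the 10 genes were ranked by Pearson's r over 17575 others, as a description. They were IPMDH1 (r 0.955), APX3 (0.944), AT1G15150 (0.937), FMOGS-OX3 (0.918) and PPC3 (0.901). For the 8 enzyme genes alone they were IPMDH1 (0.964), AT5G40970 (0.934), ANNAT1 (0.928), TPT itself (0.927) and APX3 (0.913). The libraries share genotype and time, and the likeness was given no test. AT5G40970 was listed at 0 in all tpt-2 libraries. Against the profile of all 10, MYB28 had an r of 0.111 and MYB29 of 0.254, and the enzyme genes had 0.535 (CYP79F2) to 0.906 (CYP83A1). Each of these genes is part of that mean and 8 of the 10 are enzyme genes, so higher values for enzyme genes are partly built in.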

How the data were processed

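Messenger RNA from leaves was purified with poly-T beads and made into directional libraries with dUTP, per the labels' protocols. The submitters' processing notes name CASAVA, HISAT2 2.0.5, featureCounts 1.5.0-p3, DESeq2 1.20.0 and the TAIR10 build, without their roles. The authors deposited 1 FPKM value per gene and library, and all 12 value columns were used, matched to the labels by title.

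Genes averaging under 1 FPKM across the 12 libraries were left out, which kept 17585 of 32833, and log2(FPKM + 1) was fitted with the 4 groups as 1 factor in limma 3.58.1 under R 4.3.3 (mean-variance trend). Fold changes on this scale understate those of low genes. P-values are two-sided and adjusted by Benjamini-Hochberg over all tested genes, and the threshold was 0.05. Fragments were recovered from the FPKM steps and mean transcript lengths: 98.05% to 98.44% of values worth 1 to 20 fragments came out whole within 0.05. Fitted with voom as an alternative, they gave 518 calls at 18 h against 507. Intervals cover the spread between these replicates only. Within groups 0 values above 0 were identical between libraries, so each counted as 1 replicate. Fragments of the 9 h comparison were simulated with 200 of 17472 genes changed 2-fold, at an assumed spread between replicates (dispersion 0.03). The test recovered 77% of the changed genes, and 4.94% of its calls were false. In the data, the chosen genes differed by less than 2-fold at 9 h, the lowest being FMOGS-OX1 at 67.9% of the Col-0 mean. Of all tested genes, 22.3% were called there. The simulated rates therefore cannot be carried over to the differences reported here.

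The 10 genes and the other lists were chosen with earlier results of these data known. Named are all 10 genes, called genes of each other list with some uncalled ones, and the 5 genes most like the profiles. Coordinates and sequences are from RefSeq's TAIR10.1 annotation. Alternatives were median-ratio scaling, quantile normalization, a pseudocount of 0.1, a filter at 5 FPKM or none, only the libraries compared, voom, a replicate block and leaving out each library.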

Additional observations from a re-analysis of the deposited data

Results flagged for a closer look

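The genotype difference of MYB29 changed between the time points: the interaction of genotype and time was 0.53 on the log2(FPKM + 1) scale (SE 0.105, limma adjusted p 0.0195). In every library tpt-2 was below Col-0 at 9 h and above it at 18 h. The 18 h difference itself was not called (limma adjusted p 0.0855), and was called in 0 of 20 alternative settings, so a reversal was not shown. At 18 h, 22.1% of all genes likewise had groups without overlap and tpt-2 higher. The adjusted p of the interaction lay between 0.0147 and 0.0569 over 19 alternative settings and passed the threshold in 18 of them, the exception being the fit without Col-0 replicate 2 at 18 h.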

How the results depend on the processing

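No called difference of the 10 genes changed sign in any alternative run. Leaving out 1 library gave 3 to 5 called genes at 9 h, 0 to 6 at 18 h, 0 to 1 in the interaction, 1 to 1 between the times in Col-0 and 2 to 4 in tpt-2. The lone loss to 0 at 18 h and in the interaction came without Col-0 replicate 2 at 18 h. Quantile normalization gave 2 called genes between the times in Col-0 (UGT74C1 beside BCAT4), and the fit on only the libraries compared gave 2 in tpt-2. Quantile normalization moved the median log2 difference of all genes at 18 h by -0.11. There the split of calls over all genes went from 352 higher and 155 lower to 152 and 220, and under median-ratio scaling to 175 and 323, with the counts of the 10 genes within 1 of the main ones. At 9 h it went from 2383 higher and 1534 lower to 1519 and 2244 under median-ratio scaling, and to 1642 and 1807 under quantile normalization.

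The labels state no pairing behind the replicate numbers, and the values gave no sign of one. Deviations of same-numbered libraries correlated between -0.345 and 0.135, and those of differently numbered libraries between -0.227 and 0.348. With the replicate block the counts were 5, 4, 1, 1 and 3, the calls lost being UGT74C1 at 18 h and MAM1 between the times in tpt-2.

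Differences that changed sign were all near 0 and uncalled. Under quantile normalization the interaction was -0.0435 for CYP83A1 and -0.0106 for FMOGS-OX1. With 1 library left out, the interaction ranged from -0.0303 to 0.0471 for CYP83A1, from -0.0192 to 0.1249 for FMOGS-OX1, from -0.233 to 0.0024 for CYP79F2 and from -0.1558 to 0.004 for SOT18. The genotype difference of CYP79F2 at 9 h ranged from -0.1905 to 0.0383. Between the times in Col-0, MYB28 ranged from -0.2659 to 0.0218, CYP79F2 from -0.1166 to 0.0771 and SOT18 from -0.141 to 0.0059. The causes were not tested. The fit on only the libraries compared cannot give the interaction.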
